A study of Mus musculus with 12 samples.

Results

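The expression of 10 genes of monocytes, dendritic cells and their progenitors was followed in mouse bone marrow progenitors labelled as null for Tet2, for Id1, for both or for neither. The genes were F13a1, Ly6c2, Csf1r, Ccr2, Klf4, Mgl2, Clec10a, Mpeg1, Cx3cr1 and Siglech, taken by symbol, and all 10 were found among the 55450 genes of the deposited table. Donor cells that lacked lineage markers and carried the receptor Kit had been sorted from recipients of competitive marrow transplants, in which donor cells compete with other marrow in 1 host. Ribosomal RNA was depleted from total RNA before stranded libraries were made. The 12 libraries form 4 groups of 3: WT, Tet2 KO (Tet2KO below), Id1 KO (Id1KO) and Tet2 KO + Id1KO (dKO). The labels give no strain, age, sex, Cre driver or allele structure for these groups. Each genotype has a single sample number with a suffix on 2 of its 3 libraries, so the libraries of a genotype may come from 1 pool of cells, and p-values measure only the spread between libraries.

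Monocytes and dendritic cells arise in the marrow from progenitors shared with granulocytes. The growth factor receptor encoded by Csf1r sustains the monocyte branch, Ly6C marks classical monocytes, and CCR2 lets them leave the marrow, while CX3CR1 is high on patrolling monocytes and on early monocyte and dendritic progenitors. TET2 takes part in removing DNA methylation, and its loss is a frequent driver of clonal blood growth with a tilt towards myeloid cells. ID1 blocks E proteins, transcription factors that bind short DNA elements called E boxes and that take part in lymphoid and dendritic cell development. The design asks what each loss does to progenitor transcripts and whether Id1 loss changes the Tet2-null state.

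Each library held between 15706407 and 19959183 estimated counts, and 14346 genes were abundant enough to test. Levels are given as CPM, counts scaled to a common library total, and a level is compared between genes only as CPM per kb of exon. Kit stood at 315 to 365 CPM in the means of the 4 genotypes, and of 11 lineage markers 5 (Cd3e, Cd8a, Cd4, Ms4a1 and Ly6g) averaged under 0.5 CPM, while all 11 summed to between 39 and 50 CPM per library. The targeted genes did not fall with their labels: mean Tet2 was 99.3 CPM in WT and 130 in Tet2KO, and mean Id1 was 1.47 CPM in WT and 3.96 in Id1KO. The total of Tet2, whose annotated exons merge into 14, cannot show the loss of a single exon. This limit does not account for Id1, whose annotated exons merge into 1. Id1 was also above its WT level without an Id1-null label, with a Tet2KO mean of 3.86 CPM, and the dKO mean was 3.93. Thus Id1 RNA did not follow the Id1 label, and WT was the group that stood apart. The reason was not tested, and genotype names refer to labels only. All 12 pairs of libraries within a genotype differed by more than sampling noise, with a chi-square statistic per degree of freedom of 1.52 to 5.35, against 9.17 to 24 for the 54 pairs between genotypes. Repeat preparations of 1 pool can also differ by more than sampling noise, so this does not settle whether the libraries are separate samples. The common coefficient of variation between libraries of a genotype, as estimated by edgeR, was 0.031.

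Sequence limits how well these genes can be counted, because 2 of the members are close relatives and Ly6c2 has a near copy outside the set. Mgl2 (chr11:70130329-70137550) and Clec10a (chr11:70156197-70170834) are neighbours on the plus strand of GRCm38. Their longest annotated coding sequences are identical at 811 of 914 aligned bases, or 88.7%. The following 120-base stretch of the coding sequence is the ungapped one in which they differ most, and it is shown because it holds bases that tell the reads of the genes apart. Capitals mark the 11 bases that differ.
Mgl2: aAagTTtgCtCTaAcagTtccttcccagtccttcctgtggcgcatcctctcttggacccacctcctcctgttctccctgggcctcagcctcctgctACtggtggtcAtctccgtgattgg
Clec10a: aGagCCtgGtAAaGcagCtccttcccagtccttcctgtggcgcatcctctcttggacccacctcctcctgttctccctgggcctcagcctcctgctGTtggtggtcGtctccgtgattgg
It covers coding bases 96 to 215 of Mgl2 and 48 to 167 of Clec10a. By contrast, 64 of 595 ungapped windows of this length held no difference, among them the next one, from coding base 550 of Mgl2 and 502 of Clec10a, in which a read cannot be assigned to either gene by its letters.
Both genes: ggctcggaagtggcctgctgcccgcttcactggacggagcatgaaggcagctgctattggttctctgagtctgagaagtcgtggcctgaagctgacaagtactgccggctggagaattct
Of all 75-base words in the transcripts of Mgl2, 6.56% also occur in transcripts of Clec10a, and of all 50-base words 12.2%. The read length is not given in the sources used here.

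Ly6c2 (chr15:75108158-75111970, minus strand) has the near copy Ly6c1, with 352 of 393 aligned coding bases identical. The ungapped 120-base window in which they differ most covers coding bases 231 to 350 of both genes, with 16 differences (capitals).
Ly6c2: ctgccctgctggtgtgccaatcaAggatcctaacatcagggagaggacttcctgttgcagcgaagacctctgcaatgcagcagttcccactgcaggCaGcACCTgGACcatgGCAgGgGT
Ly6c1: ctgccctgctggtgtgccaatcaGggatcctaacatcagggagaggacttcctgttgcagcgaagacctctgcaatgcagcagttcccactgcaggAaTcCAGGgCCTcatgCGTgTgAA
Ly6c1 drew only 1 to 8 counts per library, at most 0.0778% of the sum of both genes, and the Ly6c signal in these cells was counted almost wholly as Ly6c2.

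Among the receptors, Csf1r (chr18:61100598-61132149), the receptor for the monocyte growth factors CSF1 and IL-34, was higher in both Tet2-null groups. Its levels in the 3 libraries were 145, 141 and 147 CPM for WT, 173, 176 and 177 for Tet2KO, 129, 129 and 132 for Id1KO, and 168, 159 and 166 for dKO. All libraries with a Tet2-null label were above all others, and those of Id1KO were lowest. The log2 fold change was 0.28 ± 0.029 (SE) in Tet2KO relative to WT and 0.34 ± 0.03 in dKO relative to Id1KO (edgeR, adjusted p 3.67e-07 and 6.83e-08). It was -0.15 in Id1KO relative to WT (adjusted p 0.00167). The difference of -0.09 in dKO relative to Tet2KO (adjusted p 0.0232) was lost with DESeq2 (0.0527) and without Tet2KO replicate 2 (0.0574), Tet2KO replicate 3 (0.0803) or dKO replicate 2 (0.0844). Csf1r, with a mean of 154 CPM, shares 873 bp with Hmgxb3 (mean 79.8 CPM) on the opposite strand, and no source used here states how the counting treated strand.

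Ccr2 (chr9:124101950-124113557), the receptor for CCL2 with which classical monocytes leave the marrow, was highest with both labels. The libraries stood at 139, 152 and 150 CPM for WT, 173, 175 and 173 for Tet2KO, 152, 145 and 156 for Id1KO, and 198, 210 and 199 for dKO. No library of dKO overlapped any other genotype, while WT and Id1KO overlapped. The log2 fold change was 0.24 ± 0.036 (SE) in Tet2KO relative to WT, 0.43 ± 0.036 in dKO relative to Id1KO and 0.22 ± 0.035 in dKO relative to Tet2KO (edgeR, adjusted p 3.77e-05, 3.34e-08 and 8.97e-05). In Id1KO relative to WT it was 0.04, with a 95% interval of -0.03 to 0.11 (adjusted p 0.552).

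Cx3cr1 (chr9:119901616-120069879, minus strand), the receptor for the membrane-bound chemokine CX3CL1, was highest in WT. Its levels were 32.2, 31.5 and 31.6 CPM for WT, 26.5, 24.5 and 25.8 for Tet2KO, 24.4, 22.7 and 25.8 for Id1KO, and 27.7, 26.6 and 26.8 for dKO. The 3 groups with a null label lay below every WT library and close to each other. Against WT the log2 fold change was -0.31 ± 0.053 (SE) in Tet2KO, -0.39 ± 0.053 in Id1KO and -0.23 ± 0.053 in dKO (edgeR, adjusted p 0.00014, 3.92e-05 and 0.00357). The differences of dKO from Tet2KO (0.08, adjusted p 0.338) and from Id1KO (0.15, adjusted p 0.055) did not pass the threshold. Without Id1KO replicate 3 the second reached an adjusted p of 0.0287. The annotated span of Cx3cr1 overlaps the genes Wdr48 (mean 95.9 CPM) and Ttc21a (6.65) on the other strand and Gorasp1 (28.8) and Csrnp1 (18.1) on its own. Cx3cr1 itself averaged 27.2 CPM, and whether reads of these genes entered its counts was not tested.

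Of the surface markers, Ly6c2, which encodes the Ly6C antigen of classical monocytes, was the most abundant member per length at 222 CPM per kb, ahead of F13a1 at 93.8 and Mpeg1 at 35.6. It stood at 525, 551 and 556 CPM for WT, 755, 787 and 775 for Tet2KO, 496, 493 and 492 for Id1KO, and 630, 633 and 607 for dKO. The 4 genotypes did not overlap, and their order was Tet2KO, dKO, WT and Id1KO, with an adjusted p below the threshold between each neighbouring pair. The log2 fold change was 0.51 ± 0.028 (SE) in Tet2KO relative to WT and 0.34 ± 0.028 in dKO relative to Id1KO (edgeR, adjusted p 3.6e-11 and 3.17e-08). It was -0.14 in Id1KO relative to WT and -0.31 in dKO relative to Tet2KO, with adjusted p of 0.00191 and 8.95e-08. When the counts of Ly6c1 were added, the change in Tet2KO relative to WT was 0.51 again.

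Siglech (chr7:55768178-55778925), a surface lectin of plasmacytoid dendritic cells, was almost absent. The 3 libraries together held 8 counts for WT, 26 for Tet2KO, 14 for Id1KO, and 20 for dKO, with exact Poisson 95% intervals of 3.45 to 15.8, 17 to 38.1, 7.65 to 23.5 and 12.2 to 30.9. These intervals cover counting error only. No library had more than 12 counts, and the gene was the only member below the limit for testing. When every gene with a count was tested, Tet2KO relative to WT gave a log2 fold change of 1.79 (edgeR adjusted p 0.0178) and no other comparison of Siglech an adjusted p under 0.118.

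The lectins gave the largest difference of the set. Mgl2 encodes CD301b, a receptor for galactose and N-acetylgalactosamine on a subset of dendritic cells and macrophages. Its levels were 15.1, 14 and 14.5 CPM in WT and 12.6, 10.8 and 11.6 in Id1KO. In Tet2KO they were 6.86, 4.65 and 3.93 CPM, and in dKO 2.85, 2.63 and 2.24. The genotypes did not overlap, and every library with a Tet2-null label was below every library without it. Mgl2 fell by 1.51 ± 0.13 (SE) on the log2 scale in Tet2KO relative to WT and fell by 2.18 ± 0.16 in dKO relative to Id1KO, which is 2.85-fold and 4.53-fold. The edgeR adjusted p were 3.7e-08 and 3.97e-09. In dKO relative to Tet2KO it fell by 0.99 ± 0.18 (adjusted p 0.000387), and against WT by 2.5 ± 0.15 (adjusted p 3.47e-10). In Id1KO relative to WT the value was -0.32 ± 0.11 with an adjusted p of 0.0674. That value passed without Tet2KO replicate 1 (0.0198) or Tet2KO replicate 3 (0.0461), with no filter (0.00794) and with the compared libraries alone (0.017). Among all 14346 genes tested, 13 genes in Tet2KO relative to WT and 3 in dKO relative to Id1KO had a mean of at least 5 CPM and a fold change as low as that of Mgl2, itself included.

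Clec10a, the neighbouring gene, encodes CD301a, a closely related lectin of macrophages and dendritic cells. Its levels were 5.49, 4.79 and 5.3 CPM for WT, 4.53, 6.14 and 4.85 for Tet2KO, 4.34, 3.85 and 3.58 for Id1KO, and 4.63, 5.57 and 4.19 for dKO. Tet2KO overlapped WT and dKO, and only Id1KO lay wholly below WT. The log2 fold change was -0.01 in Tet2KO relative to WT, with a 95% interval of -0.27 to 0.26, and 0.29 in dKO relative to Id1KO, with an interval of 0 to 0.58. Neither passed the threshold (edgeR adjusted p 0.975 and 0.18), nor did -0.4 in Id1KO relative to WT (0.0591), which passed without Tet2KO replicate 2 (0.0472) or dKO replicate 2 (0.0462). Per kb of exon, Mgl2 was at 6.95 and Clec10a at 1.79 CPM in WT, while in dKO Mgl2 was at 1.23 and Clec10a at 1.65. Of the counts of both genes, Mgl2 took 73.7% ± 0.71 (SD, n = 3) in WT, 74.8% ± 1.4 in Id1KO, 49.4% ± 9.4 in Tet2KO and 35% ± 3 in dKO. Because the genes share stretches of sequence, their sum was also tested: it fell by 0.94 ± 0.093 (SE) on the log2 scale in Tet2KO relative to WT and by 1.08 ± 0.1 in dKO relative to Id1KO (edgeR, adjusted p 2.08e-07 and 2.19e-07). The sum also passed in Id1KO relative to WT, at -0.34 (adjusted p 0.0106), where neither gene alone did, and in dKO relative to Tet2KO, at -0.48 (0.00312) against -0.99 for Mgl2 alone.

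**Figure D1:**
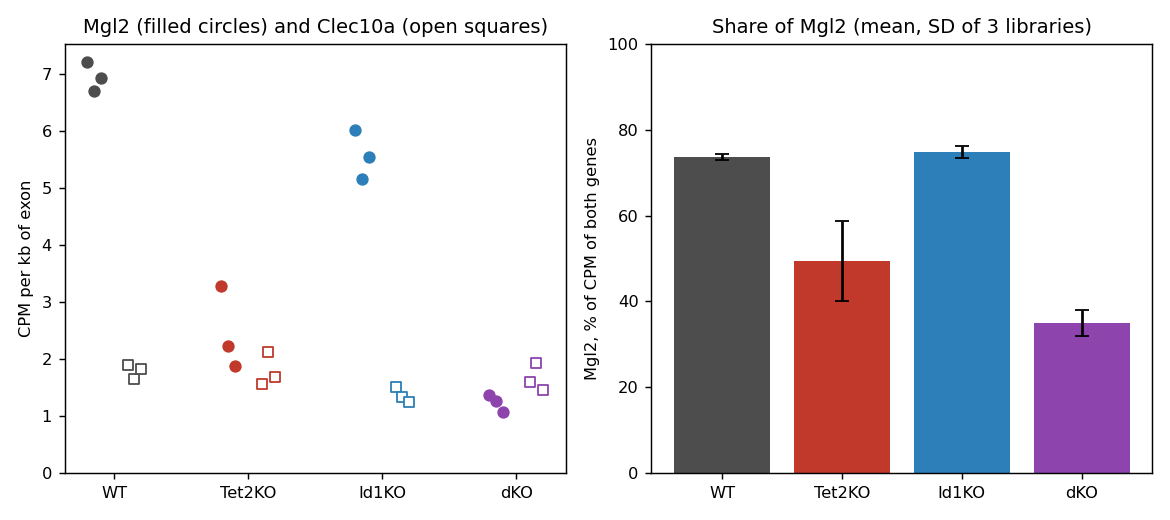
Left, level in CPM per kb of exon of Mgl2 (filled circles) and Clec10a (open squares) in each of 3 libraries per genotype. Right, share of Mgl2 in the CPM of both genes, with bars for the mean and error bars for the SD of 3 libraries; the share is 73.7% in WT and 35% in dKO.

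Klf4 (chr4:55527143-55532466, minus strand) encodes a zinc finger factor that promotes monocyte differentiation. It stood at 26.4, 24.1 and 25.6 CPM for WT, 33.5, 29.6 and 29.6 for Tet2KO, 21.9, 21.3 and 18.9 for Id1KO, and 31.1, 29.9 and 27.2 for dKO. Both Tet2-null groups lay above both others and overlapped each other. Its change on the log2 scale was 0.28 ± 0.066 (SE) in Tet2KO relative to WT, 0.5 ± 0.069 in dKO relative to Id1KO and -0.29 ± 0.069 in Id1KO relative to WT (edgeR, adjusted p 0.0024, 2.32e-05 and 0.00676). The difference of 0.21 in dKO relative to WT (0.0304) was lost with DESeq2 (0.0684) and without WT replicate 2 (0.119), WT replicate 3 (0.0632), dKO replicate 1 (0.12) or dKO replicate 2 (0.0794).

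Mpeg1 and F13a1 encode effector proteins. Mpeg1 (chr19:12460779-12465283), which encodes the pore-forming perforin-2 of macrophages, stood at 151, 138 and 138 CPM for WT, 180, 199 and 190 for Tet2KO, 116, 115 and 119 for Id1KO, and 167, 178 and 161 for dKO. Its order matched that of Csf1r and Ly6c2, with Tet2KO and dKO above WT and Id1KO lowest. The log2 fold change was 0.42 ± 0.041 (SE) in Tet2KO relative to WT and 0.53 ± 0.043 in dKO relative to Id1KO (edgeR, adjusted p 1.98e-07 and 1.94e-08). It was -0.28 in Id1KO relative to WT and -0.17 in dKO relative to Tet2KO, with adjusted p of 0.000122 and 0.00433.

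F13a1 (chr13:36867178-37050244, minus strand), the catalytic subunit of clotting factor XIII made by monocytes and megakaryocytes,, differed by at most 0.21 on the log2 scale in any pair of genotypes tested. It stood at 640, 669 and 660 CPM for WT, 594, 605 and 619 for Tet2KO, 586, 585 and 589 for Id1KO, and 660, 701 and 675 for dKO. Tet2KO and Id1KO lay below WT, whereas dKO overlapped WT. The log2 fold change against WT was -0.11 ± 0.028 (SE) in Tet2KO, -0.16 ± 0.028 in Id1KO and 0.05 ± 0.028 in dKO (edgeR, adjusted p 0.00337, 0.000433 and 0.242). In dKO it was 0.16 above Tet2KO and 0.21 above Id1KO, with adjusted p of 2e-04 and 1.47e-05.

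**Figure D2:**
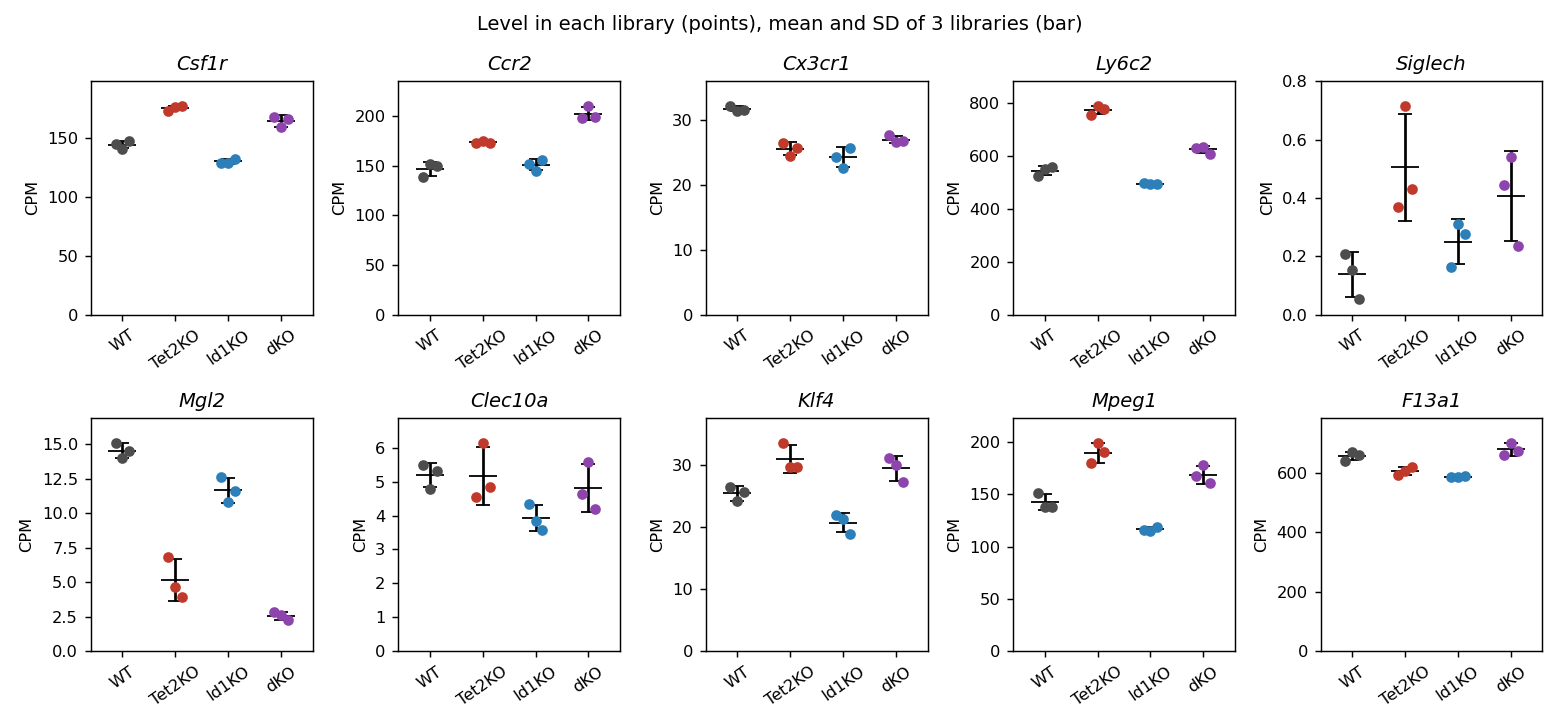
CPM of the 10 genes in each library of the 4 genotypes (points), with the mean and SD of 3 libraries (horizontal and vertical bars); every y axis starts at 0. Csf1r, Ly6c2, Klf4 and Mpeg1 are higher in Tet2KO and dKO, Mgl2 is lower there, and Siglech stays under 1 CPM.

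Read across the set, the Tet2-null label was tested in 2 comparisons that share no library. In Tet2KO relative to WT, 8 of the 9 members tested were called, 5 higher (Csf1r, Ccr2, Ly6c2, Klf4 and Mpeg1) and 3 lower (Mgl2, Cx3cr1 and F13a1), where 32.8% of all genes tested were called, 16.6% higher and 16.2% lower. The median log2 fold change was 0.24 over the 9 members and 0 over all genes. In dKO relative to Id1KO, 7 were called, 6 higher and 1 lower, where 19.3% of all genes were called, 10.6% higher and 8.70% lower. The median was 0.34 over the members and again 0 over all genes. The 5 genes higher in the first comparison were also higher in the second, and Mgl2 was lower in both. F13a1 had opposite signs in the 2 comparisons, with both past the threshold. An additive fit gives 1 value per label for both backgrounds, so opposite signs offset each other in it. Libraries summed by genotype, with additive effects of both labels, left 4 of 9 members past the threshold for the Tet2 label. In that edgeR fit 252 of 14328 genes were called for this label. The 4 members were Ly6c2 (0.42, adjusted p 0.0254), Mpeg1 (0.48, 0.0205), Csf1r (0.31, 0.0453) and Mgl2 (-1.82, 0.015). Ccr2 (0.34, adjusted p 0.0593), Klf4 (0.39, 0.0957), Cx3cr1 (-0.08, 0.815) and F13a1 (0.05, 0.8) did not pass in that fit.

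The Id1-null label was also tested on both backgrounds. In Id1KO relative to WT, 6 of the 9 members tested were called, all of them lower (Csf1r, Cx3cr1, Ly6c2, Klf4, Mpeg1 and F13a1), where 15.0% of all genes tested were called, 7.26% of all genes higher and 7.77% lower. Their changes lay between -0.39 and -0.14 on the log2 scale. In dKO relative to Tet2KO, 6 were called, 4 lower (Csf1r, Ly6c2, Mpeg1 and Mgl2) and 2 higher (Ccr2 and F13a1), where 26.4% of all genes were called, 13.1% higher and 13.4% lower. In dKO relative to WT, 7 were called, 5 higher and 2 lower, where 19.2% of all genes were called, 10.2% higher and 8.97% lower. The effect of the Id1 label differed between backgrounds (interaction) in 5 members, 3 positive (Ccr2, Cx3cr1 and F13a1) and 2 negative (Ly6c2 and Mgl2), where 14.5% of all genes were called, 7.46% positive and 7.03% negative. These comparisons share libraries with those of the Tet2 label. With libraries summed by genotype, edgeR called 0 of 9 members for the Id1 label, where it called only 9 of 14328 genes. Of the 9 members, 3 had an unadjusted p under 0.05. DESeq2 was not run on the sums.

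**Figure D3:**
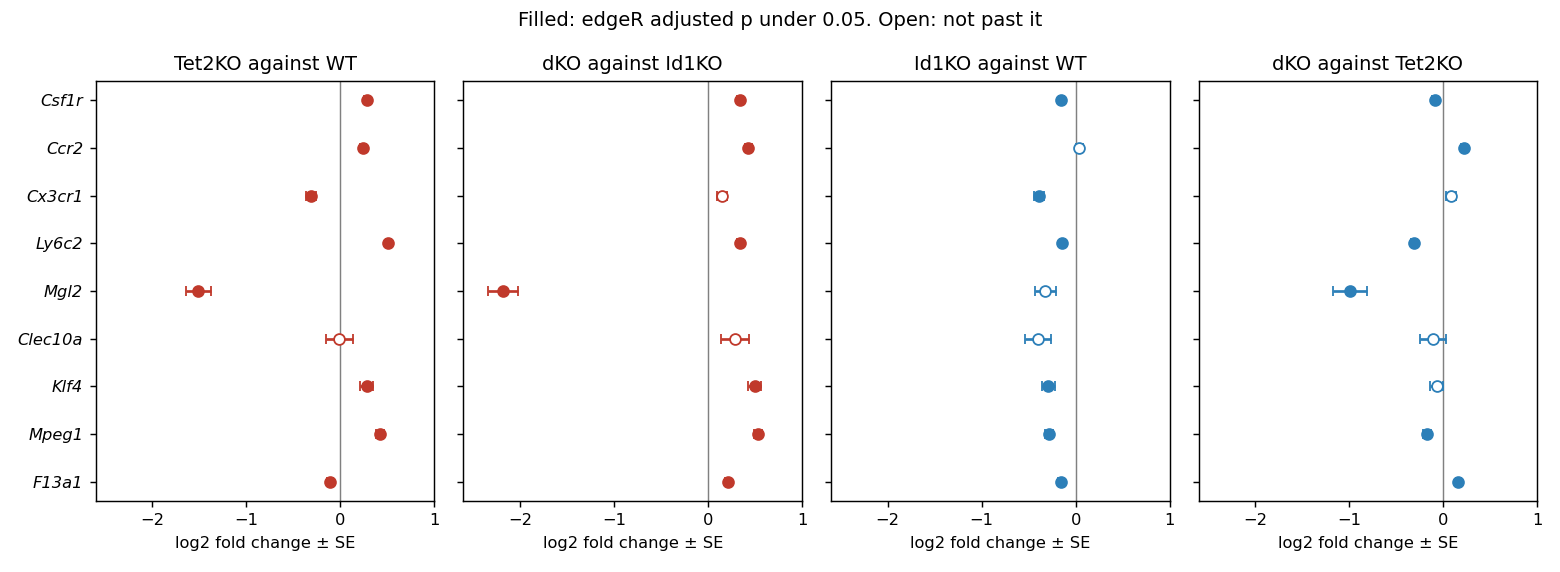
Log2 fold change (points) and its SE (bars) of the 9 genes tested, in 2 comparisons of the Tet2 label (red) and 2 of the Id1 label (blue); filled points have an edgeR adjusted p under 0.05. Mgl2 lies at -1.51 and -2.18 for the Tet2 label, and all other values lie between -0.99 and 0.53.

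Other genes of the monocyte branch, from a list of 39 of which 36 were tested, were also counted; Flt3 and Csf2ra are in this list and among the receptors below. In Tet2KO relative to WT 22 were higher and 1 lower, with a median log2 fold change of 0.24. In dKO relative to Id1KO 21 were higher and 3 lower, with a median of 0.24. These calls are 63.9% and 66.7% of the list, against 32.8% and 19.3% of all genes tested. In Id1KO relative to WT 1 was higher and 18 lower, and in dKO relative to Tet2KO 0 were higher and 19 lower. Each of these is 52.8% of the list, against 15.0% and 26.4% of all genes. Among the most abundant were Cd93, a surface glycoprotein of early progenitors and myeloid cells, and Emb, which encodes the adhesion protein embigin. Cd93 had log2 fold changes of 0.21 in Tet2KO relative to WT and -0.36 in Id1KO relative to WT, and Emb of 0.18 and -0.13, all past the threshold. Irf8, a factor that directs progenitors to monocytes and dendritic cells and is named here after its values were seen, fell by 0.36 ± 0.028 (SE) in Id1KO relative to WT and was 0.41 ± 0.028 higher in dKO than in Id1KO. It was not called in Tet2KO relative to WT, dKO relative to WT or dKO relative to Tet2KO. Its interaction was 0.37 (edgeR adjusted p 1.8e-06), so it did not share the pattern of most of the list. With libraries summed by genotype, edgeR called 8 of 37 monocyte genes tested for the Tet2 label, 7 higher and 1 lower. At an unadjusted p under 0.05 there were 22. For the Id1 label 0 were called, with 14 at an unadjusted p under 0.05. Of all 14328 genes in this fit, 252 were called for the Tet2 label and 9 for the Id1 label.

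Of 16 ligands and receptors 9 were tested, with 4 higher and 1 lower in Tet2KO relative to WT and 3 higher and 1 lower in dKO relative to Id1KO. These calls are 55.6% and 44.4% of the 9, against 32.8% and 19.3% of all genes tested. With libraries summed by genotype, edgeR called 1 of the 9 for the Tet2 label, and it was lower, so no higher call was left. Of the 9, 5 had an unadjusted p under 0.05. That fit called 252 of 14328 genes for this label. Flt3, the receptor that drives dendritic cell development, was at 68.9 ± 0.8 CPM (SD, n = 3) for WT, 99.4 ± 0.94 for Tet2KO, 62.8 ± 3 for Id1KO, and 73.3 ± 2.1 for dKO. Csf2ra, the ligand-binding chain of the GM-CSF receptor, fell by 0.53 ± 0.054 (SE) in Tet2KO relative to WT and by 0.53 ± 0.055 in dKO relative to Id1KO, whereas the shared chain Csf2rb had log2 fold changes of 0.29 ± 0.041 (adjusted p 1.57e-05) and 0.08 ± 0.041 (0.213, not past the threshold), with an interaction of -0.21 (0.0165). The neutrophil growth factor receptor Csf3r had one of 0.22 in Tet2KO relative to WT. Csf1, a ligand of the Csf1r product, averaged 10.9 CPM and Flt3l, the ligand of FLT3, 5.53, and neither passed the threshold in any of the 6 comparisons. Il34, Ccl2, Ccl7 and Cx3cl1 each averaged under 0.5 CPM, and Ccl12 had no count in any library.

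Dendritic cell genes were counted from a pair of lists. Of 20 conventional dendritic cell genes tested, 6 were higher and 3 lower in Tet2KO relative to WT, and 2 were higher and 2 lower in dKO relative to Id1KO. The first count is 45.0% of the list, against 32.8% of all genes. The second is 20% of the list, near the 19.3% of all genes called there. With libraries summed by genotype, edgeR called 0 of the 20 for the Tet2 label, where it called 252 of 14328 genes. Of the 20, 6 had an unadjusted p under 0.05. The most abundant were Wdfy4, which serves cross-presentation, the glycoprotein gene Cd24a, and Cst3, which encodes cystatin C. Wdfy4 had a log2 fold change of 0.35 in Tet2KO relative to WT and Cst3 of 0.15, while Cd24a fell by 0.3. Of 17 plasmacytoid genes tested, 8 were higher and 1 lower in Tet2KO relative to WT, and 5 were higher and 0 lower in dKO relative to Id1KO. These calls are 52.9% and 29.4% of the 17, against 32.8% and 19.3% of all genes. In the edgeR fit of summed libraries 1 of the 17 was past the threshold for the Tet2 label, and 7 had an unadjusted p under 0.05. Tcf4, the E protein that specifies plasmacytoid cells, had log2 fold changes of 0.19 and 0.18 in these comparisons. Bcl11a, another of their factors, was higher in dKO than in each other genotype, by 0.17 to 0.28, and the inhibitory receptor gene Lair1 fell by 0.25 in dKO relative to Tet2KO. Ccr9, Ly6d, Pacsin1, Klk1, Ptcra and Cd300c averaged under 0.5 CPM, as did Siglech, so these markers of plasmacytoid cells were at or near 0. Cd300c, despite that low level, is 1 of the 8 called higher in Tet2KO relative to WT (1.58, edgeR adjusted p 0.0164).

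Markers of other lineages moved in the same comparisons. Of all genes tested, 32.8% were called in Tet2KO, 15.0% in Id1KO and 19.2% in dKO, each relative to WT. In dKO, 26.4% were called relative to Tet2KO and 19.3% relative to Id1KO. All 12 erythroid markers were lower in Tet2KO than in WT, with a median log2 fold change of -0.82, and all 12 were higher in dKO than in Tet2KO, with a median of 0.78. Their summed level was 1848 to 1906 CPM for WT, 1121 to 1138 for Tet2KO, 2063 to 2083 for Id1KO, and 1868 to 1870 for dKO. In dKO relative to Id1KO, where the members' median was 0.34, the erythroid median was -0.10, with 3 markers higher and 4 lower. The summed level of 8 neutrophil precursor markers was 14484 to 14558 CPM for WT, 15952 to 16185 for Tet2KO, 12275 to 13242 for Id1KO, and 12024 to 13206 for dKO. By gene, 4 of the 8 were higher and 2 lower in Tet2KO relative to WT, with a median log2 fold change of 0.06. In Id1KO relative to WT 1 was higher and 2 lower, with a median of -0.02. In dKO relative to Id1KO 1 was higher and 3 lower, with a median of -0.07. The summed level of 9 later neutrophil markers was higher in both Tet2-null groups, at 76.6 to 81.0 CPM for WT, 100 to 105 for Tet2KO, 79.7 to 85.4 for Id1KO, and 99.5 to 111 for dKO. Of these 9, 4 were higher and 2 lower in Tet2KO relative to WT, with a median log2 fold change of 0.25, and 4 were higher and 0 lower in dKO relative to Id1KO, with a median of 0.34. Of 13 mature macrophage markers, C1qb, Cd5l, Marco, Timd4 and Mertk averaged under 0.5 CPM. The summed level was 31.5 to 33 CPM in dKO against 45.1 to 49.5 in WT. That lower sum was not shared across the list. Of 10 tested in dKO relative to WT, 0 were called higher and 1 lower. The fold change was above 0 in 9 of these 10, with a median log2 fold change of 0.29. The part of these shifts in the members' values was not tested, and in bulk libraries fewer cells of a type and less RNA per cell cannot be told apart.

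**Figure D4:**
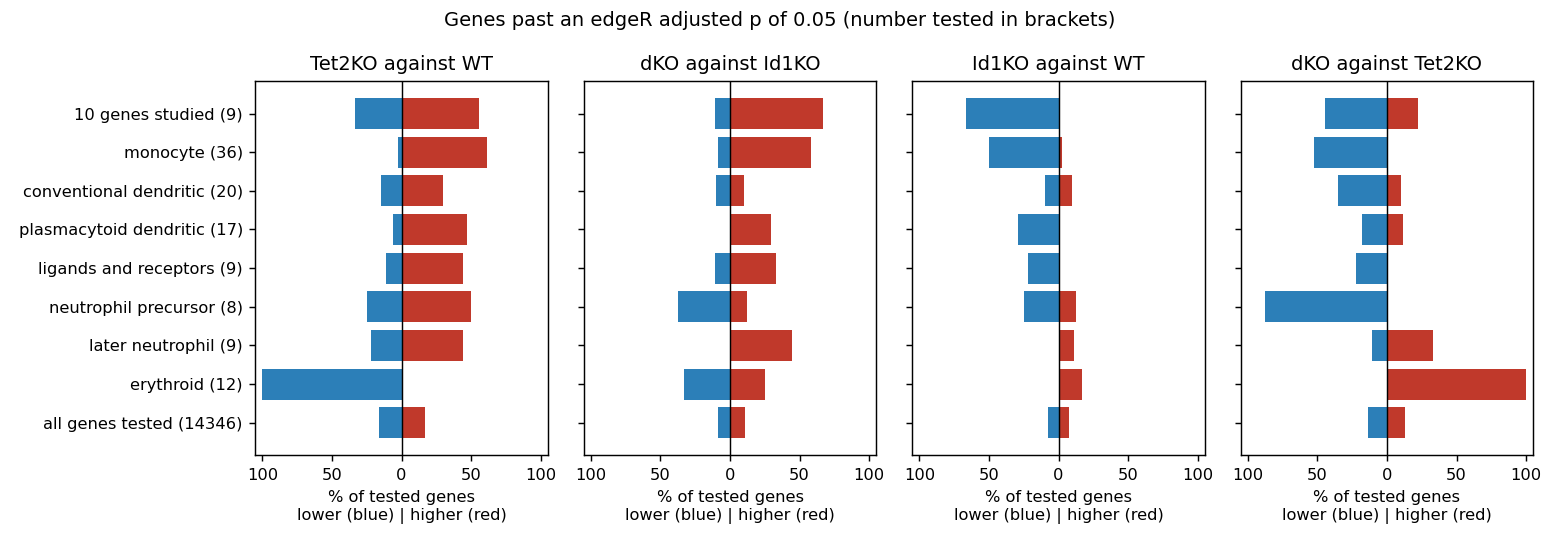
Share of the genes tested in each list that were called higher (red, to the right) or lower (blue, to the left) at an edgeR adjusted p under 0.05 in 4 comparisons; the number tested is in brackets. The erythroid bar reaches 100% to the left in Tet2KO relative to WT and to the right in dKO relative to Tet2KO, and the bottom bar gives all 14346 genes.

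For each member with a mean of at least 5 CPM, the genes nearest in pattern were sought by the root mean square difference of centred log2 levels over the 12 libraries, among 9783 genes. The nearest to Csf1r were Prex1 (0.033) and Ms4a6c (0.042), the nearest to Ly6c2 were Phactr2 (0.04) and Bmpr2 (0.041), and the nearest to Mpeg1 were Snx29 (0.047) and Ifi203 (0.051). Ctsc (0.058) and Lsm14a (0.066) were nearest to Ccr2, Ighm (0.075) and Zfp516 (0.076) to Klf4, Gpcpd1 and Cnn3 (both 0.065) to Cx3cr1, and Cmpk2 (0.032) and Ascc3 (0.042) to F13a1. The closest to Mgl2 were Slc15a2, a peptide transporter gene, at 0.4, and Olr1, a scavenger receptor gene, at 0.45. These differences were larger than for the other members, but so was the spread of Mgl2 about its own mean. That spread was 0.93 for Mgl2, 0.15 for Cx3cr1, and between 0.088 (F13a1) and 0.27 (Mpeg1) over the other members compared. The differences therefore do not rank the members by how well they are matched. Slc15a2 stood at 10 CPM for WT, 5.06 for Tet2KO, 9.94 for Id1KO, and 3.83 for dKO, and Olr1 at 10.1, 5.21, 10 and 4.2. Their log2 fold changes were -0.99 and -0.96 in Tet2KO relative to WT, and -1.38 and -1.25 in dKO relative to Id1KO, all past the threshold.

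The neighbours of Mgl2 on the chromosome were also compared. Within 250 kb on either side, 18 other genes were tested, and their log2 fold changes lay between -0.25 and 0.36 in Tet2KO relative to WT and between -0.21 and 0.35 in dKO relative to Id1KO. Only Acadvl among them was lower past the threshold in both, by 0.25 and 0.14.

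Promoters are shown for Mgl2 and Ly6c2, the members with the largest fall and rise in Tet2KO relative to WT. RefSeq promoters on GRCm38.p6 were found for 8 of the 10 members, and the 250 bases before each start were searched on both strands. The motifs were the E boxes CAGCTG and CAGGTG, the ETS core GAGGAA bound by the monocyte factor PU.1, and an IRF repeat of GAAA, 2 free bases and GAAA. Capitals mark matches; the sequences run 5′ to 3′ on the strand of the gene.
Mgl2, chr11:70130107-70130356, plus strand: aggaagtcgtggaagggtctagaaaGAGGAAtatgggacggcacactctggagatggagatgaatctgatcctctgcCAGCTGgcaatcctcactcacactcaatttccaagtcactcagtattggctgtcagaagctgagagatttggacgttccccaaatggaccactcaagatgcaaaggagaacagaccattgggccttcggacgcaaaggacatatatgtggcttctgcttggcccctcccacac
Ly6c2, chr15:75111972-75112221, minus strand: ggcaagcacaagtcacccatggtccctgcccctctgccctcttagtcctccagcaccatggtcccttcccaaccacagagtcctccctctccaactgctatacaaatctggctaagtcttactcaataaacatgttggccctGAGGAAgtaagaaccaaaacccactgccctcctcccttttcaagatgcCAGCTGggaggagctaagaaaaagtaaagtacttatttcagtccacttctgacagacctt
Both windows hold 1 CAGCTG and 1 GAGGAA. The second window of Ly6c2, chr15:75111938-75112187, holds 1 CAGCTG and 2 GAGGAA. Whether these motifs bear on the changes was not tested. CAGCTG occurred in 6 of the 10 windows of members, which belong to F13a1, Ly6c2 (2 overlapping windows), Klf4, Mgl2 and Cx3cr1, and in 13% of all 32851 promoters. GAGGAA occurred in 4 windows and in 23.3% of all, CAGGTG in 1 (Siglech) and in 17.2%, and the IRF repeat in 0 and in 2.98%. A match describes letters in the window and not a bound site.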

How the data were processed

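The authors deposited 1 table of estimated counts per gene for 12 libraries, not normalized, and 8.25% of its genes hold a value that is not whole. STAR, RSEM and the build mm10 are named in the submitters' processing notes, without versions. The strand setting and read length are not given in the sources used here. All 55450 identifiers matched GENCODE M21 (GRCm38), which gave positions and exonic lengths.

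Values were rounded to whole counts, and filterByExpr of edgeR (minimum count 10) set which genes were tested. All 12 libraries were fitted together with TMM scaling, 1 mean per genotype and edgeR's quasi-likelihood test (two-sided), with Benjamini-Hochberg adjustment over 14346 genes and a threshold of 0.05. CPM use TMM-scaled totals. Exact permutation of 3 libraries against 3 has a smallest p of 0.1 and was not used. Totals of 15706407 to 19959183 counts limit genes under about 10 counts, such as Siglech.

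The members and gene lists were chosen with earlier results of these data known. Named genes are the members, the 3 most abundant genes of each list (1 of them is not reported here), a fixed set of ligands and receptors, and the 2 genes nearest in pattern to each member (log2 of CPM + 0.5). Near copies were sought with blast at 95% identity over at least 100 bp, and coding sequences were aligned with Biopython. Alternatives tried were DESeq2, other scalings (RLE, upper quartile, and TMM without 6121 mitochondrial and small RNA genes), other filters (none, or 10 counts throughout a genotype), a fit of the compared libraries alone, a replicate block, each library left out, libraries summed by genotype (minimum count 30), near copies summed, and a threshold of 0.01.

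The steps were tested on simulated data with 200 changed genes, drawn with the spread estimated from these libraries. If the libraries of a genotype are repeats of 1 pool, the simulation cannot show the rate of false calls between separate samples. For Tet2KO against WT, edgeR recovered 91% of 2-fold changes with 10 false calls among 14198 genes and 40.5% of 1.2-fold changes with 7 among 14196. For the interaction it recovered 80.5% of 2-fold changes with 10 false calls and 31% of 1.2-fold changes with 5. Versions were R 4.3.3, edgeR 4.0.16, DESeq2 1.42.0, Python 3.11.15, Biopython 1.88, matplotlib 3.10.9 and blast 2.17.0.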

Additional observations from a re-analysis of the deposited data

Results flagged for a closer look

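In 5 of the 9 members tested the change with the Id1 label differed between the Tet2-null and the other background, by edgeR's test of the interaction, where 14.5% of all genes tested were called. The interaction is the log2 fold change of dKO over Tet2KO minus that of Id1KO over WT. It was 0.47 ± 0.077 (SE) for Cx3cr1 (adjusted p 0.000349), which was lower in Id1KO than in WT but whose difference in dKO against Tet2KO missed the threshold. For F13a1 it was 0.33 ± 0.039 (adjusted p 1.08e-05), with a fall on the first background and a rise on the second. Ccr2 had an interaction of 0.19 (adjusted p 0.0165), Ly6c2 of -0.17 (0.0066) and Mgl2 of -0.67 (0.0425). The call for Mgl2 was lost without WT replicate 2 (adjusted p 0.0735), WT replicate 3 (0.0652), Tet2KO replicate 1 (0.148, value -0.41), Id1KO replicate 1 (0.0901), Id1KO replicate 3 (0.0579), dKO replicate 2 (0.0607) or dKO replicate 3 (0.121), and in the sum with Clec10a (-0.14, adjusted p 0.575). That for Ccr2 was lost without WT replicate 2 (0.0601) or WT replicate 3 (0.0531).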

How the results depend on the processing

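Libraries summed by genotype changed most: of the members called, 4 were left for the Tet2 label, where 8 (Tet2KO relative to WT) and 7 (dKO relative to Id1KO) had been called, and 0 for the Id1 label, where 6 had been called on each background; 3 had an unadjusted p under 0.05. This fit has 1 residual degree of freedom, and a change that differs between backgrounds counts as spread in it. Over all genes it called 252 for the Tet2 label and 9 for the Id1 label, against 4699 and 2156 in the WT comparisons. The additive fit gives 1 value per label for both backgrounds, so a sign that differs between them cannot be kept on both. For the Tet2 label F13a1 had 0.05, from -0.11 in Tet2KO relative to WT and 0.21 in dKO relative to Id1KO. Cx3cr1 had -0.08, from -0.31 and 0.15, and Clec10a 0.14, from -0.01 and 0.29. For the Id1 label F13a1 had 0.00, from -0.16 in Id1KO relative to WT and 0.16 in dKO relative to Tet2KO. Cx3cr1 had -0.15, from -0.39 and 0.08. These signs follow from the form of the fit. A threshold of 0.01 left 3 of 5 interaction calls. With a library left out, the members called ranged from 8 to 8 in Tet2KO relative to WT, 6 to 7 in Id1KO relative to WT and dKO relative to WT, 5 to 6 in dKO relative to Tet2KO, 7 to 8 in dKO relative to Id1KO and 3 to 5 for the interaction. The interaction fell to 3 without WT replicate 2 or WT replicate 3. Clec10a, not called, ranged from -0.14 to 0.07 in Tet2KO relative to WT and from -0.23 to 0.03 in dKO relative to Tet2KO, and was positive in 4 such fits of the first (0.01, 0.04, 0.05 and 0.07) and 1 of the second. Deviations of same-numbered libraries correlated between -0.11 and 0.12, over 0.1 in 1 of 18 pairs. Libraries with other numbers correlated between -0.11 and 0.17. No pairing by number was visible, but these correlations cannot exclude a weak shared batch. With a replicate block 8 members were called in Tet2KO relative to WT and 7 in Id1KO relative to WT, where Mgl2 passed (adjusted p 0.0432). The other settings moved no count of members by over 1.5 times. Depth limits Siglech, at most 12 counts per library.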
